A study of Homo sapiens with 4 samples.

Results

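The downstream promoter peaks of protein-coding genes are PML ChIP-seq peaks whose centre lies over 100 and up to 1000 bp inside the gene, counted from its transcription start site (TSS). They were chosen by 2 columns of the authors' annotated peak table, the gene type protein-coding and the distance to the TSS. The rule gave 6278 of the 68937 peaks (9.11%), and these lie at 6070 genes. PML ChIP-seq was done in MDA-MB-231, an established human triple-negative breast cancer cell line, from which DNA cross-linked to proteins was recovered with a PML-specific antibody. By the labels there are 2 libraries of PML ChIP and 2 of input, and the input served as the reference for peak calling. The labels name no treatment, and the duplicates were merged by the authors, so there is 1 peak list, no second condition and no replicate error. Other peaks at protein-coding genes serve for comparison: 3737 core peaks, centred within 100 bp of the TSS, and 2091 upstream peaks, centred over 100 and up to 1000 bp before it.

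Transcription by RNA polymerase II starts at the TSS, and the polymerase often pauses a short way inside the gene before it goes on. The DNA just past the start codes for the 5' UTR, the part of the mRNA before the coding sequence, and for the first exon and the beginning of the first intron. In genes with a CpG island it is usually part of that island, a stretch rich in the dinucleotide CG. PML is the protein that builds PML nuclear bodies, and by ChIP-seq it is seen where it is near DNA, directly or through other proteins.

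The letters at the starts of these genes are given first, for elements that lie at or past the TSS and for one that the study's title brings in, the element bound by RONIN (THAP11) and ZNF143. They are RefSeq sequence of build GRCh38.p14, 30 bases each, 5′ to 3′ along the gene, with the match in capitals. The motif AAGATGGCG, the element of the factor YY1, was looked for on both strands of the 300 bases around each TSS (250 before and 50 after). It was found in 124 of the 4141 RefSeq promoters that matched a downstream peak (2.99%), in 113 of 2554 promoters of core peaks (4.42%), in 30 of 1248 of upstream peaks (2.40%) and in 532 of all 22078 protein-coding promoters (2.41%). In 83 of the 124 (66.9%) it stood past the start and on the strand of the gene, as it did in 320 of the 532 (60.2%). The peak covered it in 90 of the 124 (72.6%), in 111 of the 113 at core peaks (98.2%) and in 22 of the 30 at upstream peaks (73.3%). The 4 highest-scoring downstream peaks with this motif were at ZNF341, MAML1, a Notch coactivator, IBA57, an iron-sulfur cluster assembly factor, and NELFA, a subunit of the complex that holds paused RNA polymerase II. Their peaks cover the match.
ZNF341, chr20:33732009-33732038, plus strand, match 23 to 31 bases after the first transcribed base: cggcggctccAAGATGGCGcaggcgatctt
MAML1, chr5:179732833-179732862, plus strand, match 21 to 29 bases after it: aaacaattttAAGATGGCGgccgcggcggt
IBA57, chr1:228165804-228165833, plus strand, match 10 to 18 bases after it: actcttgtccAAGATGGCGaccgcggcgct
NELFA, chr4:2008943-2008972, minus strand, match 12 to 20 bases after it: gctttcccccAAGATGGCGtccatgcggga

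The first part of the THAP11/ZNF143 module, ACTACAATT, was rare. It stood in 20 promoters with a downstream peak (0.483%), in 11 with a core peak (0.431%), in 2 with an upstream peak (0.160%) and in 83 of all promoters (0.376%). All 20 matches with a downstream peak lay before the TSS, and the peak covered 10 of them. The place was not particular to these peaks, since only 1 of the 83 over all promoters lay past the start. Core peaks covered the match in 10 of 11 promoters and upstream peaks in 0 of 2. Of the 4 highest-scoring downstream peaks with a match, that of PELI1, a ubiquitin ligase of innate immune signalling, begins past it. Those of LMBRD2, SERBP1 and CNIH4 cover it. In LMBRD2 and SERBP1 the capitals show the motif as read from the other strand.
PELI1, chr2:64144522-64144551, minus strand: caaccggagaACTACAATTcccaagagcct
LMBRD2, chr5:36152027-36152056, minus strand: gcctgctgggAATTGTAGTttccgtcccgc
SERBP1, chr1:67430507-67430536, minus strand: gcgtcctgggAATTGTAGTcccgacgcgga
CNIH4, chr1:224356726-224356755, plus strand: gtactaatgaACTACAATTcccagcatgcg

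Ribosomal protein mRNAs typically begin with a run of pyrimidines (C and T), the 5' terminal oligopyrimidine tract through which mTOR signalling acts on their translation. Of the 18 ribosomal protein genes with a downstream peak and a matched RefSeq start, 10 (55.6%) begin with at least 5 pyrimidines in a row. The share was 5.05% over all 4141 matched promoters of downstream peaks and 4.93% over all promoters. The starts of the highest-scoring of these genes, RPS7, and of 3 others, picked as examples of such runs, are shown, with 10 bases before the first transcribed base and the unbroken pyrimidine run in capitals. At RPS7 the RefSeq start gives a run of only 3.
RPS7, chr2:3575250-3575279, plus strand: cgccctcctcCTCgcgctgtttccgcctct
RPL35, chr9:124861938-124861967, minus strand: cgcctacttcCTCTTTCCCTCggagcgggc
RPL28, chr19:55385922-55385951, plus strand: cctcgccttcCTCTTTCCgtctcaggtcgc
RPS24, chr10:78033853-78033882, plus strand: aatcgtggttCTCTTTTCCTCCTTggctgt

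Counted by the nearest TSS, PML peaks next to protein-coding TSSs lay inside the gene more often than in front of it. There were 6278 downstream and 2091 upstream peaks, a ratio of 3.0 (2.86 to 3.16). A peak in front of a gene but nearer to the start of a divergent gene is counted with that gene, or left out if that gene is non-coding. How much this adds to the ratio was not tested. Intervals of shares and medians are exact 95% intervals, Clopper-Pearson for shares and from order statistics for medians. That of a difference of medians is taken from the opposite ends of the 2 median intervals and is not an exact 95% interval. All these intervals cover counting error only, because 1 merged list has no replicates and peaks are not replicates of a condition. No p-value was computed for the same reason. The numbers fell off on both sides: 2002 peaks were centred over 100 to 200 bp past the TSS, 1506 over 200 to 300 bp, 935 over 300 to 400 bp, 576 over 400 to 500 bp and 181 over 900 to 1000 bp. The surplus over the mirrored upstream distance was 2.72-fold over 100 to 200 bp, 4.35-fold over 300 to 400 bp and 2.18-fold over 900 to 1000 bp. The distance is counted from the middle of the called interval, not from a summit, since the table gives none.

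**Figure D1:**
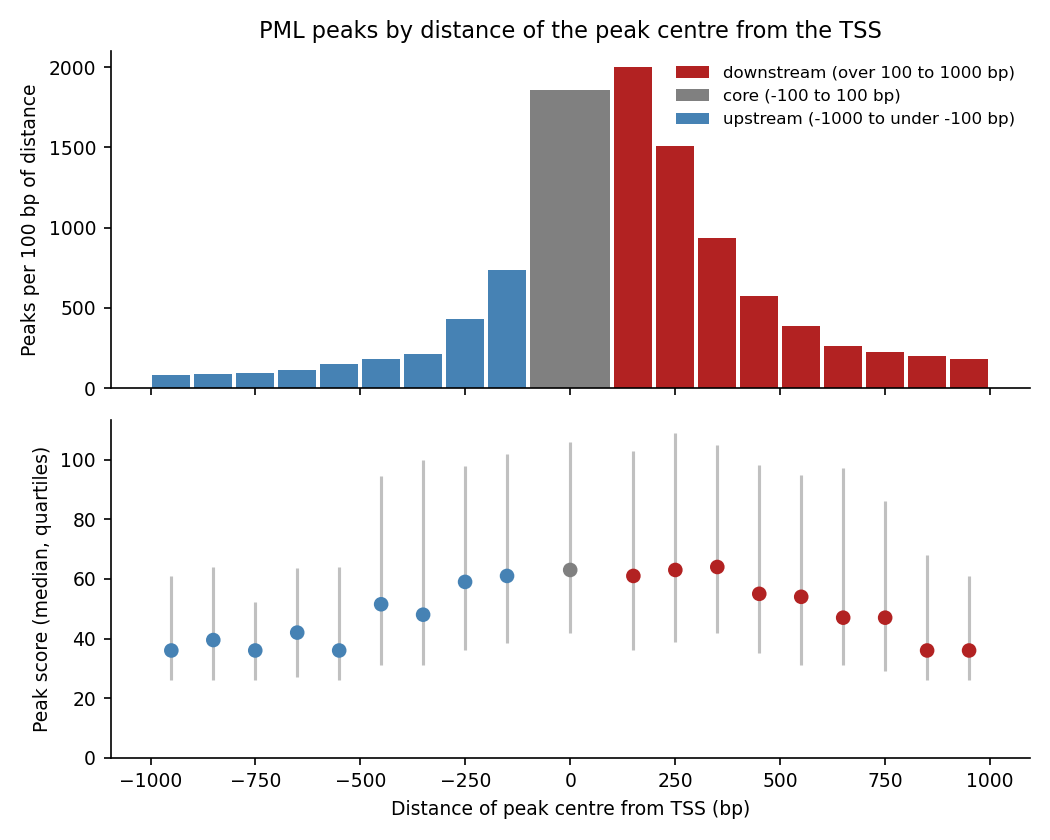
Upper panel, PML peaks of protein-coding genes per 100 bp of distance between peak centre and TSS (bp), with downstream peaks in red, core peaks in grey and upstream peaks in blue. The core bar is its count of 3737 scaled to 100 bp. Lower panel, the median peak score in each bin with its quartiles as lines. Counts are highest over 100 to 200 bp (2002 peaks), and the median downstream score is 64 over 300 to 400 bp and 36 beyond 800 bp.

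Downstream peaks had a median score close to that of core peaks and a little above that of upstream peaks, but the class holds peaks that reach the TSS, with a median of 75, and peaks that stop short of it, with 36. The score is the authors' whole-number peak score, on a scale not stated in the file headers, and is used to rank peaks only within this list. Its median was 61 for downstream peaks (quartiles 36 and 100, interval of the median 57 to 61), 63 for core peaks (42 and 106, 61 to 68) and 53 for upstream peaks (31 and 90, 48 to 55). All core peaks cover the TSS, and against them the downstream peaks that also cover it scored 12 higher at the median (7 to 20). The difference over all downstream peaks was -2 (-11 to 0). A downstream peak must be wide to cover the TSS and a core peak need not be, so the 12 does not compare like widths. Among peaks 400 to 1000 bp wide the difference from core peaks was -6 (-8 to -3). Over the 37511 peaks of protein-coding genes outside this 1000 bp window the median score was 31. The 8-point lead over upstream peaks shrank to 1 when both sides were limited to over 100 to 500 bp, and to 0 among genes with a single promoter peak. Downstream peaks were 774 bp wide at the median (761 to 787), core peaks 757 bp (735 to 776) and upstream peaks 741 bp (708 to 783). In the higher-scoring part of the list downstream peaks were 69 bp wider than core peaks (30 to 103). A score of at least 200 was reached by 320 downstream peaks (5.10%), by 5.16% of core and by 5.07% of upstream peaks. Downstream peaks made up 1717 of the 5000 highest-scoring peaks of the whole list (34.3%).

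The median score was nearly level over the first 300 bp of the class and lower further in. It was 61, 63 and 64 in the 3 bins from 100 to 400 bp, 55 and 54 in the next 2 up to 600 bp, 47 up to 800 bp and 36 up to 1000 bp. Peaks just inside the limits of the rule differed little from those just outside. The 202 peaks over 100 to 110 bp had a median score of 61.5 and the 218 over 90 to 100 bp one of 61. At the far end the 19 peaks over 990 to 1000 bp had a median of 36 and the 20 over 1000 to 1010 bp one of 31.5. The highest-scoring peaks at the near limit were those of PC, the mitochondrial enzyme pyruvate carboxylase (score 294, 110 bp), and RBM39, a splicing regulator (279, 102 bp). At the far limit they were those of CLCF1, a cytokine of the interleukin-6 family (167, 995 bp), and GLIS2, a zinc finger transcription factor (139, 998 bp).

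Most downstream peaks were wide enough to reach back over the TSS. The interval covered it in 4297 of 6278 (68.4%, 67.3 to 69.6%), and 1315 of 2091 upstream peaks did so from the other side (62.9%, 60.8 to 65.0%). Those that covered the TSS had a median score of 75, and were 957 bp wide and 219 bp from it at the median. The 1981 that stopped short of it had a median score of 36, a width of 437 bp and a distance of 479 bp. A covering peak went on for a median of 223 bp in front of the TSS, and 3269 of them (76.1%) for at least 100 bp. A median of 75.6% of the interval of a covering peak lay inside the gene, where the rule places its centre. The downstream ends of both kinds were alike, at a median of 713.5 bp from the TSS for covering peaks and 734 bp for the others. The gap left by peaks that stopped short was 177.5 bp at the median.

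Covering the TSS went with the score at every distance. A peak centred further away needs more width to reach back, and width and score rise together in this list (a Spearman rank correlation of 0.669 over the 6278 peaks, a description with no test, since both come from the same called interval). Over 100 to 200 bp the 1903 covering peaks had a median score of 66 and the 99 others one of 31. Over 750 to 1000 bp there were 77 covering peaks with a median score of 130 and a median width of 2221 bp, against 412 others with a score of 33 and a width of 473.5 bp. Of the downstream peaks in the top 1569 by score (100 or more), 94.96% covered the TSS, and of those in the lowest 1570 (36 or less), 35.9% did. With a score of at least 200 it was 315 of 320.

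**Figure D2:**
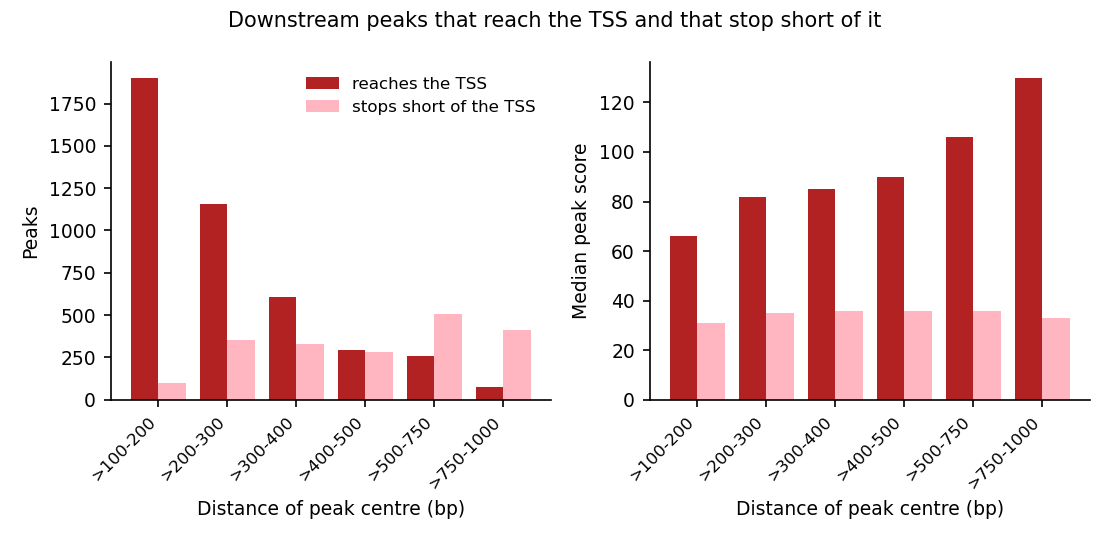
Number (left) and median peak score (right) of downstream peaks by distance of the peak centre from the TSS (bp), for peaks that reach the TSS (dark) and peaks that stop short of it (light). The number that reach it falls from 1903 over 100 to 200 bp to 77 over 750 to 1000 bp while their median score goes up with distance, and the others stay at 31 to 36 throughout.

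The peaks that were both high-scoring and short of the TSS were few. The highest was at GAGE12I, a cancer-testis antigen gene (score 387, 452 bp wide, 392 bp from the TSS), which begins 166 bp past the start. GAGE genes are near-identical copies of one another on the X chromosome, so which copy the reads come from is uncertain. LANCL2 followed with a score of 328 in its first exon, 205 bp past the TSS. CCDC71L had 301, and its interval began 2 bp past the TSS.

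The 12 highest-scoring downstream peaks all spanned the TSS. The highest score, 899 at 263 bp, was that of LRP6, which with frizzled receptors binds Wnt proteins, in exon 1 within the 5' UTR, on chromosome 12 from 12265964 to 12267599. CPSF1, a subunit of the machinery that cleaves and polyadenylates mRNAs, had 811 in intron 2 at 341 bp. The peak of MAF1, which represses RNA polymerase III, had 750 at 356 bp in the 5' UTR and was 3332 bp wide. ZNF341, a zinc finger transcription factor, had 607 in intron 1 at 408 bp, on chromosome 20 from 33731685 to 33733123. POLR2J3 had 583 in exon 1 at 118 bp. It belongs to a small family of near-identical RNA polymerase II subunit J genes, so reads may be split among copies.

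The remaining 7 of these 12 scored between 417 and 491. JRK, a helix-turn-helix protein, had 491 at 222 bp. TRIM7, of the tripartite motif family of ubiquitin ligases, had 477 at 276 bp, and RAI14, an ankyrin-repeat protein of the actin cytoskeleton, 466 at 210 bp. SQSTM1, the autophagy receptor p62, had 447 at 383 bp with an interval of 6354 bp, the second widest of the class, from 2794 bp before to 3560 bp past the TSS. ATAD2, a bromodomain ATPase, had 442 at 378 bp, and SLC39A13, a zinc transporter, 423 at 559 bp. RPS7, a protein of the small ribosomal subunit, completed the 12 with 417 at 311 bp. The widest downstream peak was that of SLC6A8, the creatine transporter, with 7076 bp and a score of 162, and the third widest that of SLC52A2, a riboflavin transporter, with 5862 bp and 320.

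**Figure D3:**
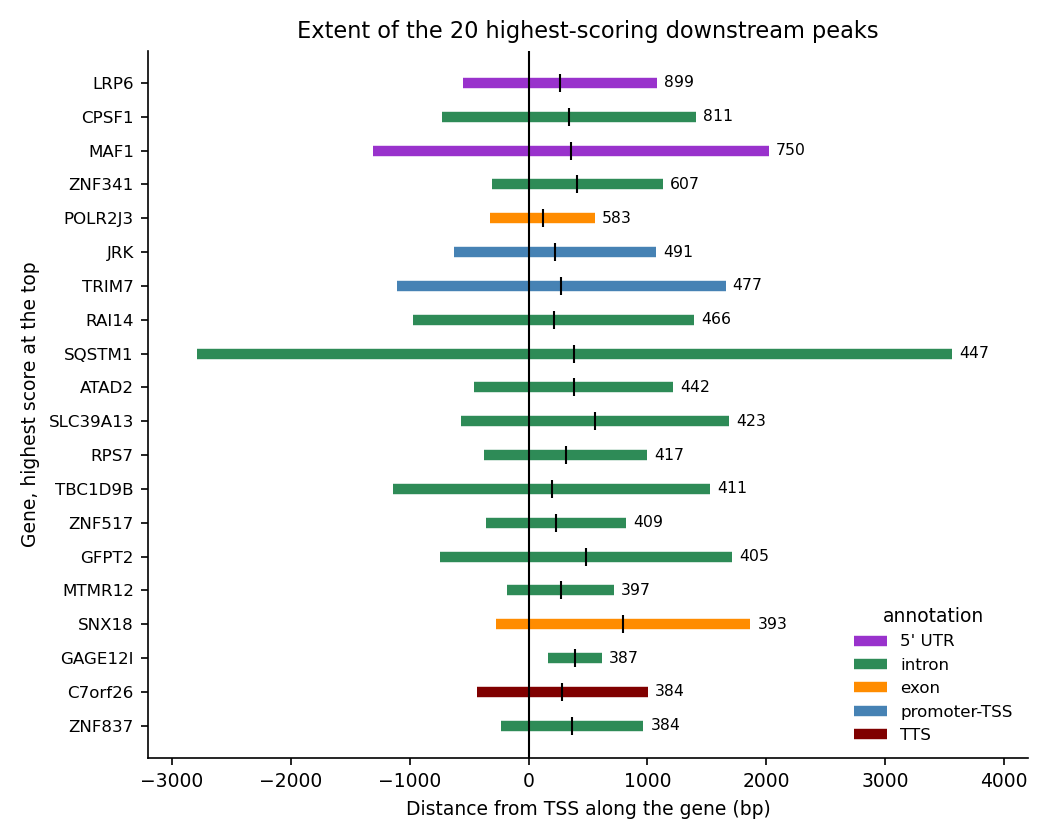
Extent of the 20 highest-scoring downstream peaks along the gene (bp from the TSS, which is the vertical line), highest score at the top, with the peak centre as a tick, the score at the right end and the annotation class as the colour. In 19 of the 20 the interval crosses the TSS, GAGE12I being the exception. Scores run from 384 to 899, and 13 of the 20 centres are in introns.

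By annotation class, introns held the most downstream peaks and the 5' UTR the highest-scoring ones among the 3 transcript classes. The class is that of the peak centre. Introns had 2470 peaks (39.3%, 38.1 to 40.6%), coding or other exons 1436 (22.9%, 21.8 to 23.9%) and the 5' UTR 1060 (16.9%, 16.0 to 17.8%). A further 948 (15.1%) were called promoter-TSS, 209 exon of a non-coding transcript, 150 transcription end (TTS) and 5 the 3' UTR. Median scores were 65 in the 5' UTR (interval 61 to 68), 55 in exons (55 to 61) and 55 in introns (54 to 57). The TSS was covered by 82.5% of 5' UTR, 62.5% of exon and 59.3% of intron peaks. Their median distances differed in the same order, at 198 bp in the 5' UTR, 290 bp in exons and 341 bp in introns.

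Nearly all of these positions belonged to the first exon or the first intron. Of the 5180 peaks whose annotation gives an exon or intron number, 4743 (91.6%) had number 1. The annotation named the transcript of the nearest TSS for 3295 of the 6278 peaks (52.5%). It named a transcript of the same gene for 5371 (85.6%). Class and number can thus belong to another transcript than the one from which the distance is counted. Exon 1 held 1029 of the 1060 5' UTR peaks (97.1%) and 1254 of the 1436 exon peaks (87.3%), and intron 1 held 2276 of the 2470 intron peaks (92.1%). Peaks in exon 2 (138) and in intron 2 (135) both had a median score of 42, below the medians of 61 in exon 1 and 55 in intron 1. They also lay further in, at a median of 547 bp in exon 2 and 633 bp in intron 2, against 266 bp in exon 1 and 328 bp in intron 1. CPSF1 was an exception, with its score of 811 in intron 2.

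The mix of classes changed with distance. The 5' UTR took 27.1% of peaks over 100 to 200 bp and 3.87% over 900 to 1000 bp, and introns 23.9% and 67.4% at the same distances. Exons stayed between 19.98% and 31.8% in all 9 bins. By score the mix differed less: introns made up 35.1% of the 1569 highest-scoring and 44.8% of the 1570 lowest-scoring downstream peaks, the 5' UTR 19.1% and 14.5%.

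**Figure D4:**
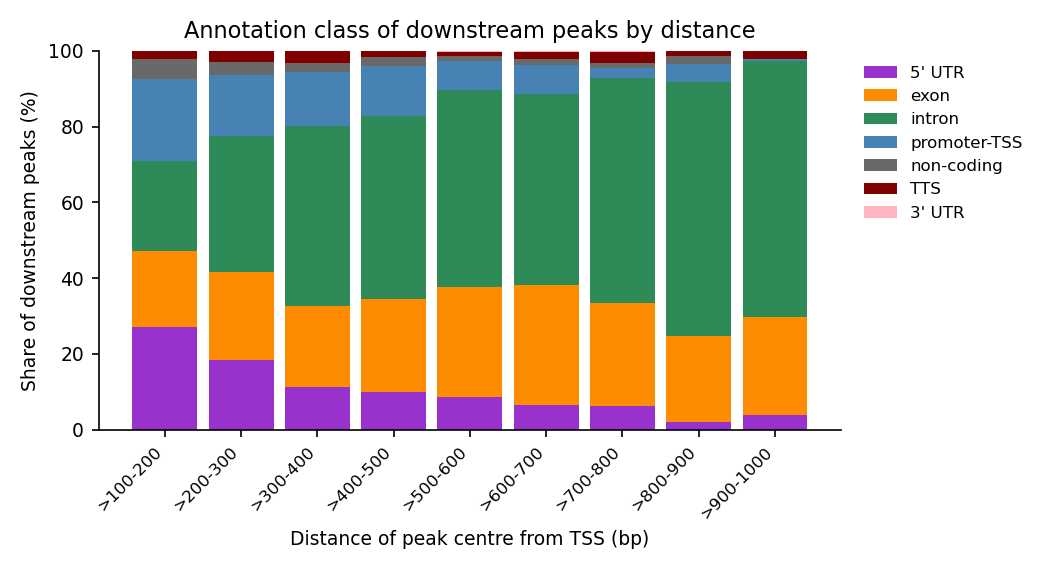
Share of downstream peaks (%) in each annotation class by distance of the peak centre from the TSS (bp). The 5' UTR takes 27.1% of the nearest bin and 3.87% of the farthest, while introns take 23.9% and 67.4%.

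Representatives of each class show what the annotation says of a peak. In the 5' UTR the third highest after LRP6 and MAF1 was ACTL10, an actin-like gene (score 361, 510 bp). Among exon peaks POLR2J3 was followed by SNX18, a sorting nexin of endosomal traffic (393, in its only exon at 798 bp), and MCIDAS, a regulator of multiciliated cells (370, 202 bp). Exon peaks of non-coding transcripts were led by CNOT6, an mRNA deadenylase (384, 197 bp), RBM39 (279) and YWHAE, a 14-3-3 protein (268, 173 bp). In these 3 the annotated transcript belongs to the same gene. Of the TTS peaks, 142 of 150 name another gene. C7orf26 (384) sits at the end of ZDHHC4, LENG9 (357) at the end of LENG8, and C12orf57 (354) at the end of the small nuclear RNA gene RNU7-1.

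Peaks called promoter-TSS pointed to a second start nearby. The annotation gives this name to positions from 1000 bp before to 100 bp past a TSS, so a downstream peak can carry it only through another transcript. Of the 948, 633 (66.8%) named another gene and 312 (32.9%) another transcript of the same gene. Of the 633, 329 named a protein-coding transcript and 304 a non-coding one. Their median score was 68 (interval 65 to 74) and 81.0% covered the TSS. JRK is annotated to the promoter of PSCA, TRIM7 to another start of its own, and LRP8, a receptor for reelin (score 358, 311 bp), to its divergent transcript LRP8-DT.

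Intron peaks could also be set apart by what the detailed annotation names at their centre. It named a CpG island for 1803 of 2470 (73.0%), a repeat for 87 and neither for 580. Median scores were 61 with a CpG island, 47 with a repeat and 36 with neither, and median widths 808, 568 and 501 bp. The TSS was covered by 67.4%, 47.1% and 35.7% of them, and their median distances were 312, 449 and 492.5 bp. The part of distance in this order was not tested. For exons and UTRs the annotation gives no CpG island, so the same split could not be made there.

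The promoters behind downstream peaks were rich in CG. RefSeq promoters of 300 bases could be matched within 2 bp of the TSS for 4159 of the 6278 peaks (66.2%), which have 4141 distinct promoters. Their median GC content was 67.0% and they held a median of 28 CG dinucleotides, against 68.7% and 30 for core peaks, 69.3% and 29 for upstream peaks, 62.3% and 21 for all promoters and 56.7% and 10 for genes with no promoter peak. Promoters with fewer than 10 CG dinucleotides made up 8.16% of those with a downstream peak, against 30.03% of all. Among downstream peaks they were 3.11% where the peak covered the TSS and 20.2% where it stopped short. Whether CG content itself has a part in which peaks were called was not tested.

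Short promoter elements did not all follow the same lines as the CG content. The SP/KLF box GGGCGG stood in 74.9% of promoters with a downstream peak, in 77.5% with a core peak, in 77.6% with an upstream peak and in 56.3% of all, so all 3 classes lay above the background and the downstream one lowest of them. The TATA box TATAAA stood in 5.14% of promoters with a downstream, 3.05% with a core and 4.89% with an upstream peak and in 9.50% of all. Among downstream peaks it was 4.06% where the peak covered the TSS and 7.77% where it stopped short. The ETS site CCGGAAGT was found in 6.42% with a downstream peak, in 10.7% with a core peak, in 3.77% with an upstream peak and in 5.31% of all. The NRF1 site GCGCATGCG had 3.21%, 3.33%, 3.04% and 2.33% in the same order. The CCAAT box of NF-Y had 35.2%, 31.6%, 33.6% and 34.7%. Still in that order, the CRE TGACGTCA had 2.92%, 3.48%, 2.72% and 2.25%, the AP-1 site TGANTCA 4.52%, 3.72%, 4.09% and 6.16%, and the E-box CACGTG 9.47%, 11.6%, 8.17% and 8.32%. The palindrome TCTCGCGAG had 1.40%, 1.76%, 0.561% and 0.919%, and TTCCCAGNA, the second part of the THAP11/ZNF143 module, 2.68%, 2.55%, 2.56% and 3.03%. Both strands were searched, matches of different motifs may overlap, and a match is not a bound site.

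A gene transcribed the other way within 1000 bp before the start was less frequent at downstream than at core peaks. It was found for 750 of 4159 downstream peaks with a matched start (18.0%, 16.9 to 19.2%), for 668 of 2554 core peaks (26.2%, 24.5 to 27.9%) and for 192 of 1248 upstream peaks (15.4%, 13.4 to 17.5%). The partner of a downstream peak was a long non-coding RNA in 482 cases and a protein-coding gene in 268. The peak covered both starts in 375 of the 750 (50%), in 83.8% at core peaks and in 69.3% at upstream peaks. These shares depend in part on the rule that sets the classes. All core peaks cover their own TSS, and 68.4% of all downstream peaks do. The partner's start also lies across the TSS from a downstream centre and on the same side as an upstream one. The median score of downstream peaks was 66 with such a partner and 61 without. ZNF341 has the start of an uncharacterised long non-coding RNA 13 bp away, and its peak covers both starts. So do those of GAK, a cyclin G-associated kinase (score 323), with TMEM175, a lysosomal potassium channel, 144 bp away, and of SDHA, a subunit of succinate dehydrogenase (271), with CCDC127 167 bp away.

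For most genes the downstream peak was the one promoter peak in the table. Of the 6070 genes, 5875 had 1 downstream peak, 185 had 2 and 10 had at least 3. No core or upstream peak was named for 5389 (88.8%), while 260 also had a core peak and 454 also an upstream one. Over all 10958 genes with a promoter peak, 6070 had a downstream, 3687 a core and 2024 an upstream peak. Peaks of a second class were thus rare over all these genes and not only at those with a downstream peak. ABR had 5 downstream peaks, with scores of 26, 300, 51, 102 and 67 in the order of the chromosome. VGLL4, a cofactor of TEAD transcription factors, had 4, with 47, 48, 97 and 158. ACHE, the enzyme acetylcholinesterase, BCAR1, an adaptor of integrin signalling, and DGKZ, a diacylglycerol kinase, had 3 each. Each such peak was measured from the transcript start nearest to it, so 1 gene can have downstream peaks at several alternative starts.

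Downstream peaks were spread over all chromosomes in similar proportion to the other promoter peaks, but their high scores were not. They made up between 47.8% and 55.3% of the promoter peaks of a chromosome. Of the 320 with a score of at least 200, 44 lay on chromosome 5 and 34 on chromosome 8. Together these are 24.4% of the high-scoring peaks, from chromosomes with 8.46% of the class. The median score was 74 on these chromosomes and 59 on the rest. Chromosome 22 had no such peak among 140 downstream peaks, and its median score was 48. The chromosomes with the highest medians were 9 (82.5), 15 (81) and 13 (75). Part of this pattern was shared by core peaks, with a median of 63 over all of them. Their medians were 99 on chromosome 15, 80 on 13, 75 on 8, 69 on 9, 63 on 5 and 48 on 22. Upstream peaks, with a median of 53 over all of them, had 65 on chromosome 15, 49 on 13, 59 on 8, 59 on 9, 61 on 5 and 42 on 22. Scores of at least 200 were not counted by chromosome for core and upstream peaks.

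Among the 13948 protein-coding genes named in the table, 6070 had a downstream peak (43.5%), and gene lists were read against that share. Among the 10958 genes with any promoter peak it was 55.4%. A core peak was named for 3687 of the 13948 genes and an upstream peak for 2024. Of 57 cytosolic ribosomal protein genes, 20 had a downstream peak (35.1%, 22.9 to 48.9%), 26 a core and 8 an upstream peak. Their median score was 53.5, against 61 for all downstream peaks. RPS7 (417 at 311 bp) stood far above the others. RPL10 had 166 at 108 bp, RPL35 156 at 236 bp, RPL28 153 at 263 bp, RPL13 139 at 359 bp, RPS26 122 at 233 bp, RPS4X 120 at 161 bp and RPL36 106 at 104 bp.

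The other 12 ribosomal protein genes scored below 100. RPS24 had 92 at 243 bp, RPS15 55 at 129 bp, RPL32 52 at 157 bp, RPL14 48 at 211 bp, RPS9 43 at 193 bp, RPL17 36 at 221 bp and RPS27A 32 at 109 bp. RPS10 (143 bp), RPSA (228 bp), RPL9 (134 bp), RPLP1 (213 bp) and RPL38 (171 bp) all had a score of 31. The centres lay between 104 and 359 bp, and 17 of the 20 peaks covered the TSS. By class 10 were in introns, 4 in the 5' UTR, 6 in the promoter-TSS class and none in an exon class. Ribosomal protein genes have many processed pseudogenes, so how reads from the exon parts of these peaks were placed among copies is uncertain. Those in the promoter-TSS class include RPL35, annotated to ARPC5L, and RPL13 and RPL32, annotated to the small nucleolar RNA genes SNORD68 and SNORA7A.

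Translation factors and ribosome assembly genes gave shares on the same side. Of 40 translation initiation and elongation factor genes, 12 (30%, 16.6 to 46.5%) had a downstream peak, led by EIF2S2, a subunit of the initiation factor eIF2 (146 at 254 bp), EIF5A, which helps ribosomes past difficult peptide bonds (107 at 104 bp) and the RNA helicase EIF4A1 (96 at 441 bp). Of these 12 peaks, 9 were in introns. Of 43 ribosome biogenesis and RNA polymerase I genes, 16 (37.2%, 22.98 to 53.3%) had one, with a median score of 87. DKC1, the pseudouridine synthase dyskerin, had 219 at 256 bp, and the ribosome assembly factors RRS1 and TSR1 142 at 265 bp and 134 at 147 bp.

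mTOR pathway genes had a downstream peak in 25 of 41 cases (61.0%, 44.5 to 75.8%). A core peak was named for 8 of the 41, against 3687 of all 13948 genes. Set among the genes of the list with any promoter peak the share with a downstream peak was 67.6% (50.2 to 82.0%), against 55.4% over all genes. The median score was 68. MIOS, a part of the GATOR2 complex of the amino acid sensing pathway, had 235 at 169 bp. RRAGC, a Rag GTPase that brings mTORC1 to the lysosome, had 208 at 124 bp. SESN2, a leucine sensor, had 175 at 545 bp. The centres ranged from 102 to 812 bp, and 19 of the 26 peaks at these genes covered the TSS.

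Of 18 genes of RONIN and its promoter partners, 10 (55.6%, 30.8 to 78.5%) had a downstream peak. NRF1, a transcription factor of mitochondrial and growth genes, had 165 at 361 bp, GABPA, an ETS factor, 130 at 143 bp, and HCFC1, the host cell factor that binds RONIN, 112 at 376 bp. SETD1A, a histone H3 lysine methyltransferase, had 75 at 108 bp, YY1 72 at 203 bp and E2F1 63 at 855 bp. THAP11, the gene of RONIN itself, had 55 at 404 bp in its only exon, and that peak stopped short of the TSS, alone among the 10. CREBZF, a leucine zipper protein that binds HCFC1, had 55 at 577 bp, E2F4 42 at 267 bp and BAP1, a deubiquitinase that binds HCFC1, 26 at 132 bp. The HCFC1 peak was 3520 bp wide, the YY1 peak 2747 bp and the E2F1 peak 2600 bp.

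PML body components, at 13 of 27 (48.1%, 28.7 to 68.1%), were near the share of all genes. SENP6, a protease that trims SUMO chains, had 205 at 328 bp, the histone chaperone ASF1A 183 at 415 bp and MORC3, an ATPase found in PML bodies, 142 at 300 bp. Their median score was 83, and 9 of the 13 peaks were in introns. E2F and cell cycle genes had 25 of 52 (48.1%, 34.0 to 62.4%), with RB1, the retinoblastoma protein, at 202 and 231 bp, BUB1B, a spindle checkpoint kinase, at 192 and 108 bp, and RBL2, the RB family protein p130, at 149 and 236 bp for score and distance. For p53 targets it was 11 of 28 (39.3%, 21.5 to 59.4%), with GADD45A, a stress-response gene, at 187 and 692 bp, and SESN2 and SESN1, which are also in the mTOR list, at 175 and 141.

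Immediate early and AP-1 genes, which respond fast to growth signals, had a downstream peak in 23 of 37 cases (62.2%, 44.8 to 77.5%). A core peak was named for 5 of the 37, against 3687 of all 13948 genes. Among their genes with any promoter peak the share with a downstream peak was 69.7% (51.3 to 84.4%). Their downstream peaks had a median score of 90 and lay further in, at a median of 348 bp against 272 bp for all downstream peaks. Of the 23, 16 lay over 300 bp from the TSS, against 2770 of all 6278. FOSL1, an AP-1 subunit, had 293 at 341 bp in intron 1, DUSP5, a phosphatase of ERK, 191 at 241 bp in exon 1, and KLF2, a Krüppel-like factor, 161 at 416 bp in exon 2. The TSS was covered by 19 of the 23.

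Interferon-stimulated genes had 14 of 26 (53.8%, 33.4 to 73.4%), and 70% of those with any promoter peak (45.7 to 88.1%). Over all 47 matched genes of the list, many of which no peak names, it was 29.8% (17.3 to 44.9%), against 30.1% of all RefSeq protein-coding genes. Of these 14 peaks 6 covered the TSS (42.9%, 17.7 to 71.1%), an interval that holds the 68.4% of all downstream peaks. PARP14, an ADP-ribosyltransferase, had 137 at 157 bp, ISG15, a ubiquitin-like modifier, 114 at 647 bp in exon 2, and IFITM3, a membrane protein that blocks virus entry, 84 at 146 bp. Proteasome subunit genes had 16 of 35 (45.7%, 28.8 to 63.4%). Of these 16 peaks 15 covered the TSS (93.75%, 69.8 to 99.8%), against 68.4% of all downstream peaks. This was not particular to proteasome genes. All lists except the interferon-stimulated and the tissue-restricted one lay above 68.4%, and the interval of E2F and cell cycle genes also began above it (88%, 68.8 to 97.5%). The proteasome peaks lay closer to the TSS, at a median of 148.5 bp against 272 bp. PSMF1, a proteasome inhibitor, had 142 at 141 bp, ADRM1, a ubiquitin receptor of the proteasome, 135 at 982 bp with an interval of 4420 bp, and PSME4, a proteasome activator, 114 at 202 bp.

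Tubulin, actin and other housekeeping genes had 9 of 28 (32.1%, 15.9 to 52.4%), among them SDHA (271), the cytoskeletal actin gene ACTB (209 at 759 bp, 4117 bp wide) and HSPA5, the chaperone BiP (169 at 247 bp). Tissue-restricted genes of liver, neurons and blood had 5 of 20 (25%, 8.66 to 49.1%). Over all 40 genes of the list it was 12.5% (4.19 to 26.8%), against 30.1% of all RefSeq protein-coding genes, and this interval lies below that share. Their 6 peaks were at a median of 578 bp, and 2 covered the TSS. CD8A, a T cell co-receptor, had 122 at 246 bp, APOB, an apolipoprotein of liver and gut, 87 at 221 bp, and NEFL, a neurofilament protein, 68 at 716 bp.

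Read against the background, most of these shares are not results about the lists. The interval held 43.5% for 11 of the 13 lists and began just above it for the mTOR and the immediate early lists. When the lower-scoring peaks were left out and 34.2% of genes had a downstream peak, the mTOR share was 48.8% (32.9 to 64.9%) and its interval held the background, while the immediate early one was 59.5% (42.1 to 75.2%). Over all RefSeq genes both intervals began above 30.1%, at 35.5% and 44.8%, and that of tissue-restricted genes ended below it. Among genes with a promoter peak, the interval held 55.4% for 10 lists and ended below it for ribosomal proteins (24.3 to 51.3%), translation factors (17.5 to 48.7%) and housekeeping genes (15.9 to 52.4%). The intervals are not adjusted for the number of lists, and neighbouring genes are not independent.

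**Figure D5:**
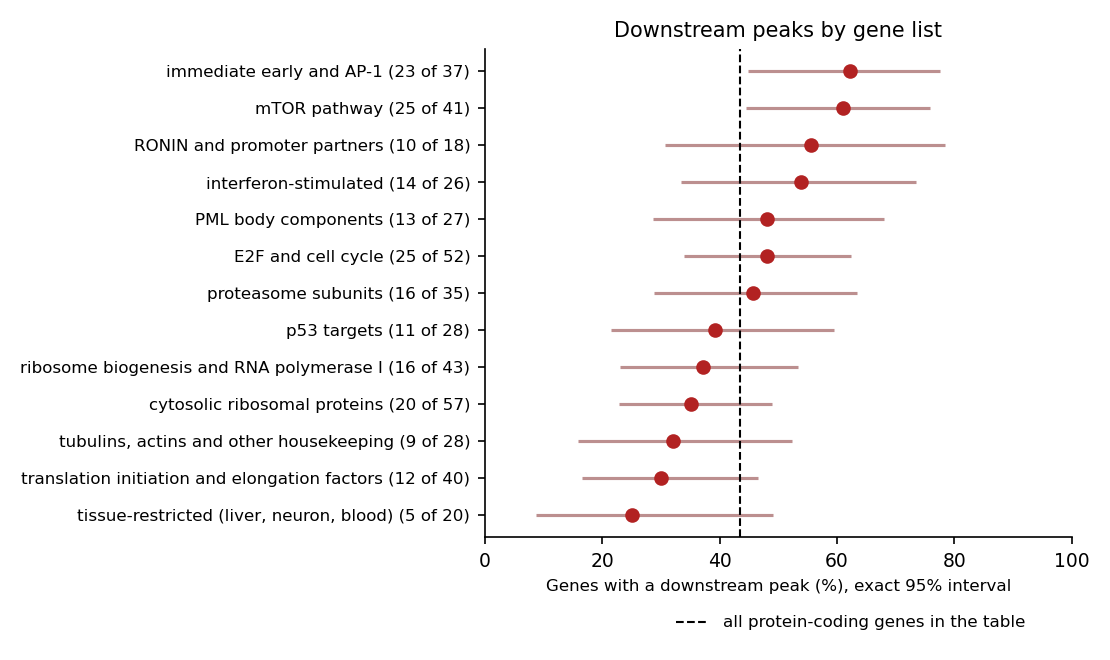
Share of the genes named in the table that have a downstream peak (%), for 13 gene lists with their counts, points with exact 95% intervals (counting error only). The dashed line is the 43.5% of all 13948 protein-coding genes named in the table. Shares run from 25% for tissue-restricted genes to 62.2% for immediate early genes, and 11 of the 13 intervals cross the line.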

How the data were processed

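The authors' deposited table holds 1 merged peak list of 2 PML ChIP and 2 input libraries, annotated on hg38. HOMER 4.11.1, MACS2 2.1.1.20160309, BWA 0.7.12, Trimmomatic 0.36 and Picard 2.0.1 are listed in the submitters' processing notes, without roles or settings. Its columns, per the file headers, are a start and end, a score, a distance to the nearest TSS and 1 nearest gene. The deposited score is a whole number of unstated scale, and its values pile up on certain numbers. Positions and distances are in bp as deposited by the authors. The peak-calling threshold and the library depths are not given in the sources used here, and enrichment over input was not recomputed. Since a wide peak can be split or joined by the caller, centres and counts depend on those settings.

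A peak covered the TSS when its interval, centred at the stated distance, reached back to it. Promoter letters, gene partners and gene types came from RefSeq tables of GRCh38.p14. The TSS implied by centre and distance lay within 2 bp of a RefSeq start of the gene for 4159 peaks, and only these were used for letters and partners. Start matching and the call of covering the TSS were tested on peaks simulated from the RefSeq starts, and the motif search on a planted motif. The class rule was checked only against its own limits. These tests check the calculation and not the deposited values. Calculations used Python 3.11.15, pandas 2.3.3, numpy 2.4.6, scipy 1.17.1 and matplotlib 3.10.9.

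Of 583 list entries (578 symbols), 577 symbols were matched. The members and lists were chosen with earlier results of these data known. The genes named are the 12 highest-scoring, the 3 highest of each annotation class and list, the widest, those with the most peaks, the highest short of the TSS, those at the ends of the distance range and all ribosomal protein and RONIN genes. Outside that rule, and after values were seen, the motif sequences shown are those of the 4 highest-scoring matches, and the other ribosomal protein starts and the divergent partners were picked as examples. Alternatives changed the distance, the peaks kept, the width, the chromosomes and the gene match.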

Additional observations from a re-analysis of the deposited data

How the results depend on the processing

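The share of downstream peaks covering the TSS was 78.9% within 500 bp, 78.3% in the higher-scoring part of the list (34468 peaks), 94.2% among the 5000 highest-scoring peaks, 52.1% when the interval had to go at least 100 bp past the TSS, 70.4% with matched RefSeq starts and 65.3% among peaks annotated to the transcript of their own TSS. With 1 peak per gene or without chromosomes 5 and 8 it stayed within its interval. The median score was 55 for peaks 400 to 1000 bp wide and 75 for peaks covering the TSS. Its lead over upstream peaks was 1 within 500 bp and 0 for genes with 1 promoter peak. Its difference from core peaks was -2 in the main comparison and -6 for peaks 400 to 1000 bp wide. It turned to 12 when only peaks covering the TSS were kept. In the higher-scoring part of the list the median width was 899 bp, 69 bp above core peaks and with a difference from upstream peaks of -59 bp, which turns the direction. The downstream to upstream ratio was 3.21 within 500 bp, 3.17 in the higher-scoring part, 3.56 among the 5000 highest, 3.33 with matched starts and 3.27 for peaks covering the TSS. Within 500 bp the class shares were 19.6% (5' UTR), 21.6% (exon), 34.7% (intron) and 17.6% (promoter-TSS), and the intron share was 37.9% in the higher-scoring part. Among all 20056 RefSeq protein-coding genes 30.1% had a downstream peak, and 29.8% of interferon-stimulated genes. With the higher-scoring part 34.2% of the genes named in the table had one. Of 77 alternative values for 26 results, 50 stayed within the interval of the reported value, which is wide for the gene lists. The alternatives restricted to an own transcript and to peaks covering the TSS were chosen after seeing the data. No paired analysis was possible because the merged list keeps no replicates apart, and for the same reason no replicate could be left out. Read depth is unknown, so it is not known which weak peaks the libraries could have shown.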
